A study of Drosophila melanogaster with 12 samples.

Results

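The genes described here are the heat-inducible Hsp70 copies Hsp70Aa, Hsp70Ab, Hsp70Ba, Hsp70Bb and Hsp70Bc, the related stress chaperone Hsp68, the constitutive chaperone Hsc70-4, the Hsp90 gene Hsp83, the Hsp70 co-chaperone DnaJ-1 and the heat shock factor gene Hsf. They were taken by symbol from the deposited gene table, which held all 10 of them among its 15423 rows, and the rows of the 5 Hsp70 copies were also added up because the copies are nearly identical in sequence. The expression data are 3' RNA-seq of fly heads (Drosophila melanogaster), a method that reads fragments next to the poly(A) tail. The 4 groups were ADAR hypomorph flies at 29°C, WT flies at 29°C, ADAR hypomorph flies at 18°C and WT flies at 18°C, each with 3 libraries, and all flies had been raised at the stated temperature and were collected at an age of 3 to 6 days as adults. ADAR edits adenosine to inosine in RNA. By the paper's account, the hypomorph has a transposon inserted in an intron of Adar, which lowers the level and activity of the enzyme. The paper's methods give the allele as Adar5G1, whereas its discussion sets ADAR5G1 flies apart from the hypomorph. The WT strain was the study's control, and the labels do not say whether the libraries of a group came from separate cultures, so that p-values measure the spread between these libraries, which may be technical.

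Hsp70 proteins bind unfolded polypeptides and release them in a cycle driven by ATP, J-domain proteins such as DnaJ-1 deliver substrates and start the ATP hydrolysis, and Hsp90 acts later in folding, on client proteins such as kinases and receptors. In Drosophila the inducible Hsp70 genes are nearly silent without stress, their RNA polymerase is held paused near the start site, and heat shock factor, which Hsf encodes, binds as a trimer to heat shock elements upstream and releases it. Hsc70-4 and Hsp83 are expressed in unstressed cells as well. The temperatures compared here were living conditions and not a heat shock.

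Total counts ranged from 4409119 to 8806472 per library, and the 10 genes together took 0.197% to 0.334% of them. Levels are given as CPM, gene counts divided by library sizes that edgeR's TMM method had adjusted. A gene was called changed when its adjusted p in edgeR's quasi-likelihood F test (Benjamini-Hochberg over 9553 genes) was under 0.05, and each log2 fold change is given with its standard error. Adar stood at 24.6, 23.5 and 21.6 CPM in ADAR hypomorph heads against 37.2, 39.5 and 42.2 CPM in WT heads at 29°C. At 18°C it stood at 37.6, 22.5 and 28.0 CPM against 40.1, 40.9 and 35.2 CPM. The log2 fold changes of Adar, hypomorph over WT, were -0.77 at 29°C (adjusted p = 0.00086, edgeR) and -0.41 at 18°C (adjusted p = 0.042, edgeR; lost in 10 of 21 alternative fits). The hypomorph library at 18°C with 37.6 CPM lay within the WT range, and the calls at 18°C are also given without it. The summed photoreceptor markers of that library (13356 CPM) stood with the other hypomorph libraries at 18°C (13409.8 and 13644 CPM) and apart from WT at 18°C (2664 to 3008 CPM). All 4 neuronal markers (elav, nSyb, Syt1 and brp) were present, with sums of 349 to 543 CPM. The 4 gut protease markers summed to 278 CPM in ADAR hypomorph library 2 and 603 CPM in WT library 2 at 29°C and to no more than 13.6 CPM in the other 10 libraries, so main counts are repeated without those 2 libraries. Markers of testis and accessory gland summed to 25.8 CPM in the same WT library and 2.90 CPM in the same hypomorph library. In the other libraries they reached at most 3.13 CPM.

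The Hsp70 copies do not give 5 independent measurements. The Hsp70Aa and Hsp70Ab rows held the same count in 5 of 12 libraries and differed by at most 13 counts in the others, with totals of 944 and 912. Their chi-square over the libraries was 0.394 on 11 degrees of freedom, well below its degrees of freedom. The other pairs among these 2 rows and the 3 B copies gave chi-squares of 16.1 to 34.0 on the same 11 degrees of freedom. A further inducible copy, Hsp70Bbb, had a row close to that of Hsp70Bb, with totals of 134 and 141. These rows differed by at most 6 counts, with the same count in 1 library and a chi-square of 6.30 on 11 degrees of freedom. Against the remaining copies Hsp70Bbb gave 14.6 to 30.9. Whether the Hsp70Bb and Hsp70Bbb rows share counts was not tested. The table also lists Hsp70Ab on the minus strand, whereas the dm6 annotation places it on the plus strand, one of 22 such differences among 12055 genes matched by symbol. The Hsp70Aa and Hsp70Ab values are therefore given as 1 signal that may be counted in both rows, and the sum is also given without the Hsp70Ab row. In the dm6 annotation Hsp70Ab also overlaps CG3281, which lies on the minus strand. The CG3281 row averaged 5.29 CPM in ADAR hypomorph heads and 4.71 CPM in WT heads at 29°C, and 5.91 and 5.02 CPM at 18°C. Its part in the Hsp70Ab row was not tested.

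**Figure D1:**
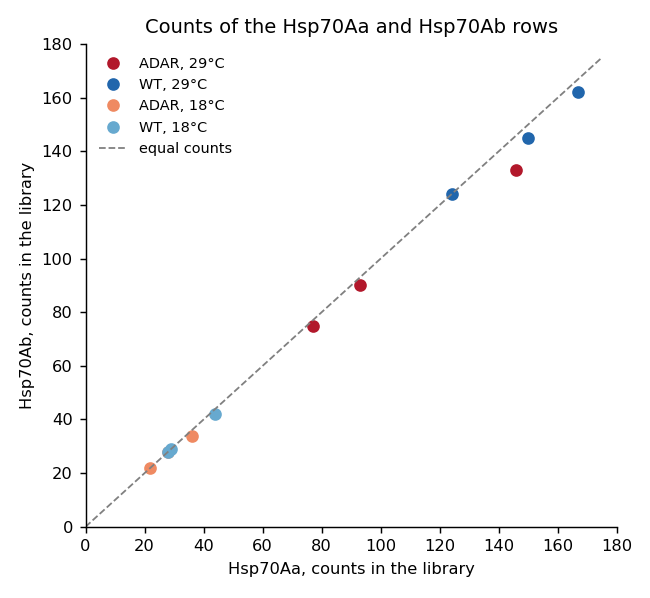
Counts of the Hsp70Ab row (vertical axis) against the Hsp70Aa row (horizontal axis), 1 point per library, coloured by group, with a dashed line of equal counts. All 12 points lie on or just below the line, with totals of 944 and 912, and 2 libraries at 18°C fall on the same point at 28 counts.

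The Hsp70Aa and Hsp70Ab rows took 81.9% of the Hsp70 counts in ADAR hypomorph heads and 80.0% in WT heads at 29°C, and 71.7% and 72.2% in the same strains at 18°C. The lowest library at 29°C stood at 78.2% and the highest library at 18°C at 77.5%, so that the temperatures did not overlap. Without the Hsp70Ab row, Hsp70Aa took 69.9% of the counts in ADAR hypomorph heads and 66.9% in WT heads at 29°C, and 56.2% and 56.7% at 18°C, with the lowest library at 29°C at 64.7% and the highest at 18°C at 63.8%. In the dm6 annotation Hsp70Aa and Hsp70Ab are neighbours on chromosome arm 3R with only a transposable element listed between them. Hsp70Bb and Hsp70Bc lie on the same arm with CR46155 between them, and Hsp70Ba is next to neither group.

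Of the 10 genes, 6 rose and 1 fell at 29°C relative to 18°C in ADAR hypomorph heads, where 32.2% of all genes tested were called (15.6% higher and 16.6% lower). In WT heads 8 were called, all of them higher at 29°C, where 33.4% of all genes were called (16.1% higher and 17.3% lower). The median log2 fold change of the 10 was 0.78 in the hypomorph and 0.74 in WT, against -0.01 and 0.01 over all genes tested. These counts and medians take Hsp70Aa and Hsp70Ab as 2 genes. Both rows were called higher at 29°C in each strain, although they may be 1 signal. Without the 2 libraries with gut transcripts 7 of 10 were called in each strain.

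The Hsp70 sum was about 3 times as high at 29°C in both strains. In ADAR hypomorph heads it stood at 29.1, 39.4 and 26.9 CPM at 29°C against 12.5, 12.1 and 9.33 CPM at 18°C. In WT heads it stood at 48.2, 51.7 and 48.7 CPM at 29°C against 17.5, 15.7 and 16.1 CPM at 18°C. The groups did not overlap in either strain, and the hypomorph library with 39.4 CPM was the gut-marked one.

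The fold of the means was 2.82 in the hypomorph (log2 1.51 ± 0.14, adjusted p = 1.5e-06 by edgeR) and 3.01 in WT (1.59 ± 0.14, adjusted p = 5.7e-07 by edgeR). An exact two-sided permutation test of the summed CPM gave p = 0.1 in each strain, the smallest that 3 against 3 libraries allow. Without the Hsp70Ab row the log2 fold changes were 1.41 and 1.5, and without the 2 libraries with gut transcripts they were 1.32 and 1.56. Of the 9549 features of that fit, the sum ranked 164th from the top in the hypomorph and 158th in WT.

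**Figure D2:**
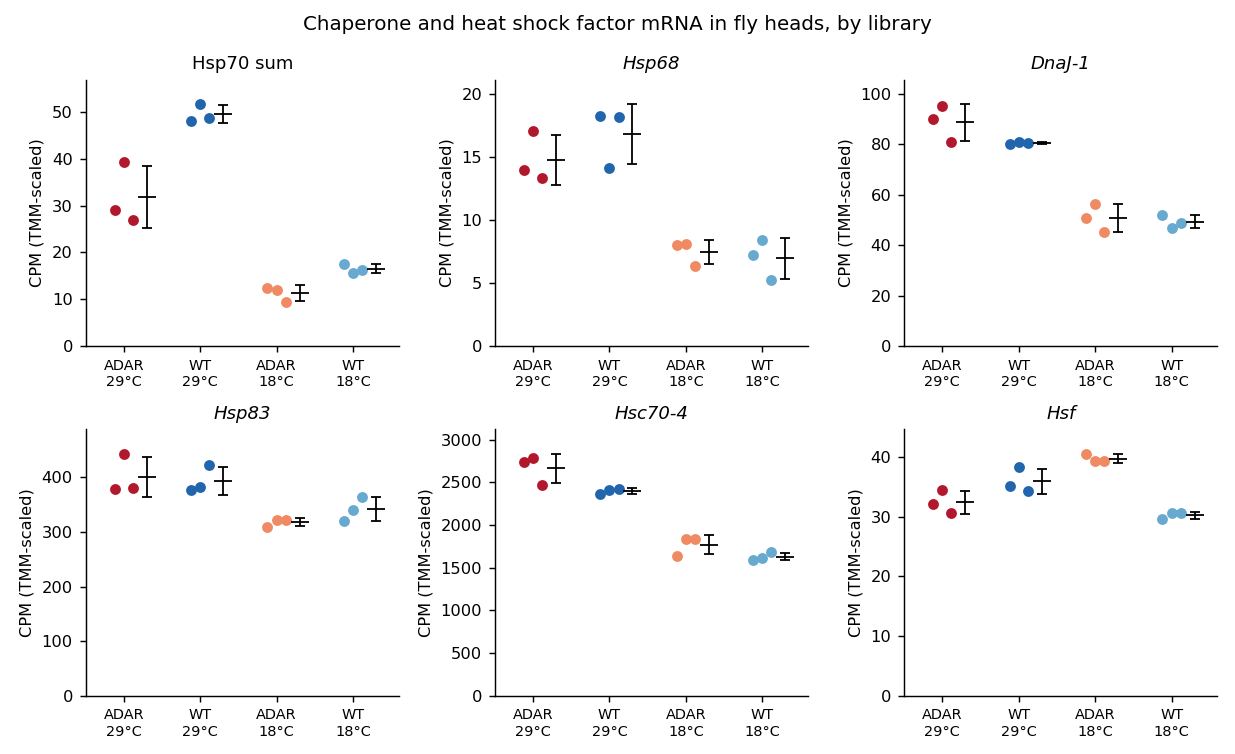
CPM in each library (coloured points; ADAR is the ADAR hypomorph) with the mean ± SD of 3 libraries (black bars), for the Hsp70 sum, Hsp68, DnaJ-1, Hsp83, Hsc70-4 and Hsf in the 4 groups; every vertical axis starts at 0. The 29°C libraries lie above the 18°C libraries of the same strain except for Hsf in the hypomorph, where the 18°C libraries (39.3 to 40.6 CPM) are the higher ones.

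Among the single copies, Hsp70Aa and Hsp70Ab had the highest levels and rose in both strains. Hsp70Aa stood at 12.5, 16.96 and 10.7 CPM in ADAR hypomorph heads at 29°C against 4.29, 4.47 and 3.44 CPM at 18°C, and at 19.4, 20.6 and 20.1 CPM in WT heads at 29°C against 6.36, 5.11 and 6.40 CPM at 18°C. Its log2 fold change was 1.73 ± 0.19 in the hypomorph (adjusted p = 6.1e-06, edgeR) and 1.74 ± 0.18 in WT (adjusted p = 3.4e-06, edgeR). The Hsp70Ab row gave 1.68 ± 0.18 and 1.74 ± 0.17.

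Hsp70Bc was called in WT heads, where it stood at 5.16, 7.82 and 4.69 CPM at 29°C against 1.97, 1.46 and 2.33 CPM at 18°C (log2 1.59 ± 0.33, adjusted p = 0.0016, edgeR). In ADAR hypomorph heads it stood at 2.68, 3.37 and 3.05 CPM at 29°C against 2.73, 1.99 and 1.23 CPM at 18°C, with overlapping libraries (log2 0.66 ± 0.34, adjusted p = 0.15, edgeR). The difference between the strains' responses was itself not called (log2 -0.93 ± 0.48, adjusted p = 0.41, edgeR).

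Hsp70Bb and Hsp70Ba were near the lower limit of what these libraries can show. Hsp70Bb averaged 1.93 ± 0.75 CPM in ADAR hypomorph heads at 29°C against 0.75 ± 0.36 CPM at 18°C, and 2.44 ± 0.58 CPM in WT heads at 29°C against 1.45 ± 0.81 CPM at 18°C (SD, n = 3 libraries each). Its log2 fold changes of 1.29 ± 0.49 and 0.77 ± 0.45 did not pass (adjusted p = 0.055 and 0.22, edgeR). Hsp70Ba had between 2 and 13 counts per library, and its log2 fold changes of 0.76 ± 0.67 and 0.39 ± 0.55 did not pass either (adjusted p = 0.42 and 0.63, edgeR). The 3 B copies added up gave log2 0.87 (adjusted p = 0.013, edgeR) in the hypomorph and 1.11 (adjusted p = 0.0016, edgeR) in WT. The further copy Hsp70Bbb averaged 1.82 ± 0.47 CPM and 2.21 ± 0.59 CPM at 29°C in the hypomorph and WT. With it the sum gave log2 1.46 and 1.54, although its row lay close to that of Hsp70Bb and may not be independent of it.

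**Figure D3:**
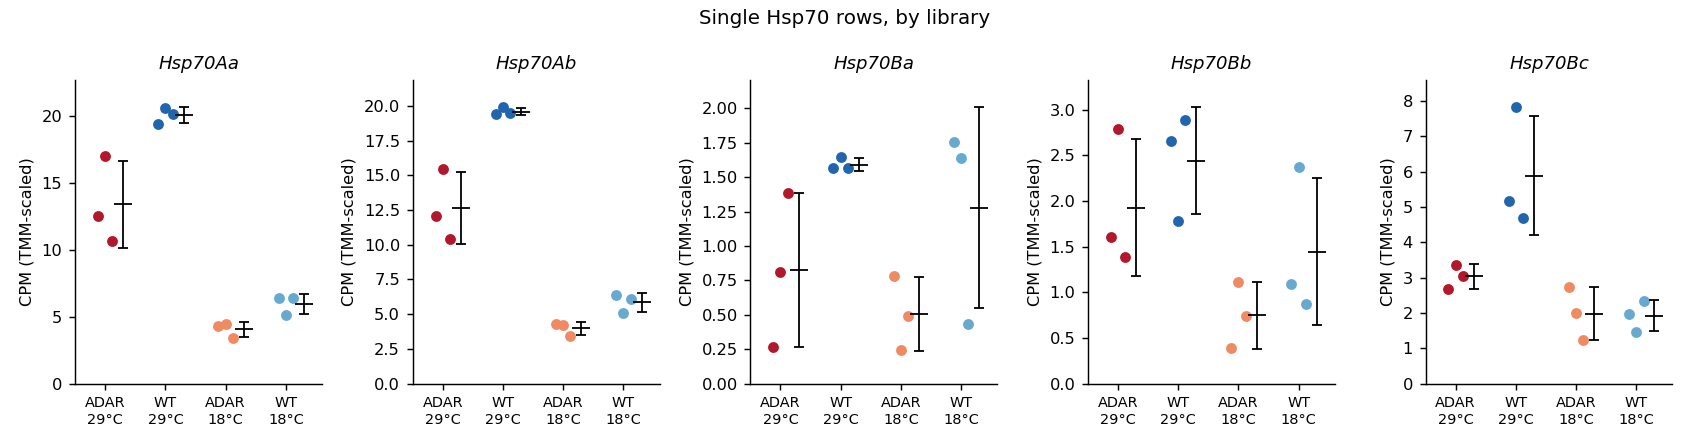
CPM of each Hsp70 row in each library (coloured points; ADAR is the ADAR hypomorph) with the mean ± SD of 3 libraries (black bars); the vertical axes start at 0 and differ between panels. Hsp70Aa and Hsp70Ab show the same picture, with WT at 29°C at about 20 CPM, whereas Hsp70Ba and Hsp70Bb stay under 3 CPM with overlapping groups in WT.

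Hsp68, an inducible member of the Hsp70 family, rose at 29°C in both strains, with folds of the means of 1.97 and 2.42. It stood at 13.96, 17.1 and 13.3 CPM in ADAR hypomorph heads at 29°C against 7.996, 8.08 and 6.38 CPM at 18°C, and at 18.3, 14.1 and 18.2 CPM in WT heads at 29°C against 7.23, 8.39 and 5.24 CPM at 18°C. The groups did not overlap in either strain. The log2 fold changes were 0.99 ± 0.18 (adjusted p = 6.2e-04, edgeR) and 1.29 ± 0.19 (adjusted p = 8.3e-05, edgeR). Hsp68 overlaps CG6000 and the noncoding RNA CR44097, both on the other strand in the dm6 annotation, and although the libraries keep the strand, the strand setting of the count is not given in the sources used here. The CG6000 row averaged 18.4 ± 2.3 CPM in ADAR hypomorph heads at 29°C against 33.6 ± 2.4 CPM at 18°C, and 26.2 ± 2.0 CPM in WT heads at 29°C against 36.8 ± 4.3 CPM at 18°C (SD, n = 3 libraries each). Within each strain CG6000 was thus lower at 29°C, where Hsp68 was higher. Between the strains at 29°C the means of both were lower in the hypomorph. The part of reads from the other strand in the Hsp68 row was not tested.

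DnaJ-1, the J-domain partner of Hsp70, and Hsc70-4, the main constitutive Hsp70, rose with smaller errors. DnaJ-1 stood at 89.9, 95.2 and 80.7 CPM in ADAR hypomorph heads at 29°C against 50.9, 56.4 and 45.05 CPM at 18°C. In WT heads it stood at 80.2, 80.8 and 80.3 CPM at 29°C against 51.9, 46.9 and 48.7 CPM at 18°C. Neither strain had overlapping groups, and the log2 fold changes were 0.80 ± 0.09 (adjusted p = 5.2e-06, edgeR) and 0.71 ± 0.09 (adjusted p = 1.9e-05, edgeR).

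Hsc70-4 stood at 2736, 2790.5 and 2469.8 CPM in ADAR hypomorph heads at 29°C against 1639, 1832 and 1839.7 CPM at 18°C. In WT heads it stood at 2359, 2414 and 2419.6 CPM at 29°C against 1595, 1614.5 and 1681 CPM at 18°C. Again the groups did not overlap. The log2 fold changes were 0.59 ± 0.06 (adjusted p = 2.1e-06, edgeR) and 0.56 ± 0.06 (adjusted p = 3.6e-06, edgeR).

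Hsp83 changed least among the chaperones that were called. It stood at 379, 444 and 380.3 CPM in ADAR hypomorph heads at 29°C against 309.7, 322 and 322 CPM at 18°C, and at 376, 382 and 422 CPM in WT heads at 29°C against 321, 339.8 and 364 CPM at 18°C. The groups did not overlap in either strain. The log2 fold changes were 0.34 ± 0.07 (adjusted p = 0.0025, edgeR) and 0.20 ± 0.07 (adjusted p = 0.043, edgeR). The WT call was lost in 11 of 21 alternative fits (adjusted p 0.026 to 0.19), among them those without WT library 2 or 3 at 29°C (0.23 and 0.15), without the unnumbered WT library or WT library 2 at 18°C (0.16 and 0.20), and without hypomorph library 2 or 3 at 18°C (0.20 each). With total counts as library sizes the hypomorph value was 0.15 (adjusted p = 0.13, edgeR) and that of WT 0.15 (adjusted p = 0.13, edgeR). Hsp83 overlaps CG14966 on the other strand, whose row averaged 17.5 ± 1.0 CPM and 19.3 ± 1.7 CPM at 29°C in the hypomorph and WT (SD, n = 3 libraries each).

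Hsf moved in opposite directions in the strains. In ADAR hypomorph heads it fell, with 32.1, 34.5 and 30.6 CPM at 29°C against 40.6, 39.4 and 39.3 CPM at 18°C (log2 -0.29 ± 0.08, adjusted p = 0.0099, edgeR). In WT heads it was higher, with 35.2, 38.3 and 34.3 CPM at 29°C against 29.6, 30.6 and 30.5 CPM at 18°C (log2 0.25 ± 0.08, adjusted p = 0.029, edgeR). The groups did not overlap within either strain. In order of level the groups ran from WT at 18°C over ADAR hypomorph at 29°C and WT at 29°C to ADAR hypomorph at 18°C, and each neighbouring pair touched or overlapped except WT at 29°C and ADAR hypomorph at 18°C. The highest WT library at 18°C and the lowest hypomorph library at 29°C both stood at 30.6 CPM.

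The difference of the temperature effects, ADAR hypomorph minus WT, was called for Hsf (log2 -0.54 ± 0.11, adjusted p = 0.017, edgeR) and for no other of the 10 genes, where 2.32% of all genes tested were called. It kept its call in each of the 12 fits that left out 1 library and without the 2 libraries with gut transcripts (log2 -0.54, adjusted p = 0.047, edgeR). It was lost when the fit used only the 8 numbered libraries, where the value was -0.52 (adjusted p = 0.17, edgeR). The rise within WT alone was less firm, since it lost its call in 11 of 21 alternative fits, with adjusted p between 0.029 and 0.14. Among these were the fits without the 2 libraries with gut transcripts (log2 0.20, adjusted p = 0.12, edgeR), without WT library 2 at 29°C (0.20), without the unnumbered WT library at 29°C (0.26), and without each WT library at 18°C (0.23 to 0.25). The fall within the hypomorph lost its call in 2 of 21, both on the 8 numbered libraries.

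For the Hsp70 sum the difference of the temperature effects was log2 -0.08 ± 0.20 (adjusted p = 0.90, edgeR), and for DnaJ-1, Hsc70-4 and Hsp83 it was 0.09 ± 0.12, 0.03 ± 0.08 and 0.13 ± 0.10. Hsp68 gave -0.30 ± 0.26 (adjusted p = 0.67, edgeR). None of these differences passed, and their errors do not show that the responses were equal.

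**Figure D4:**
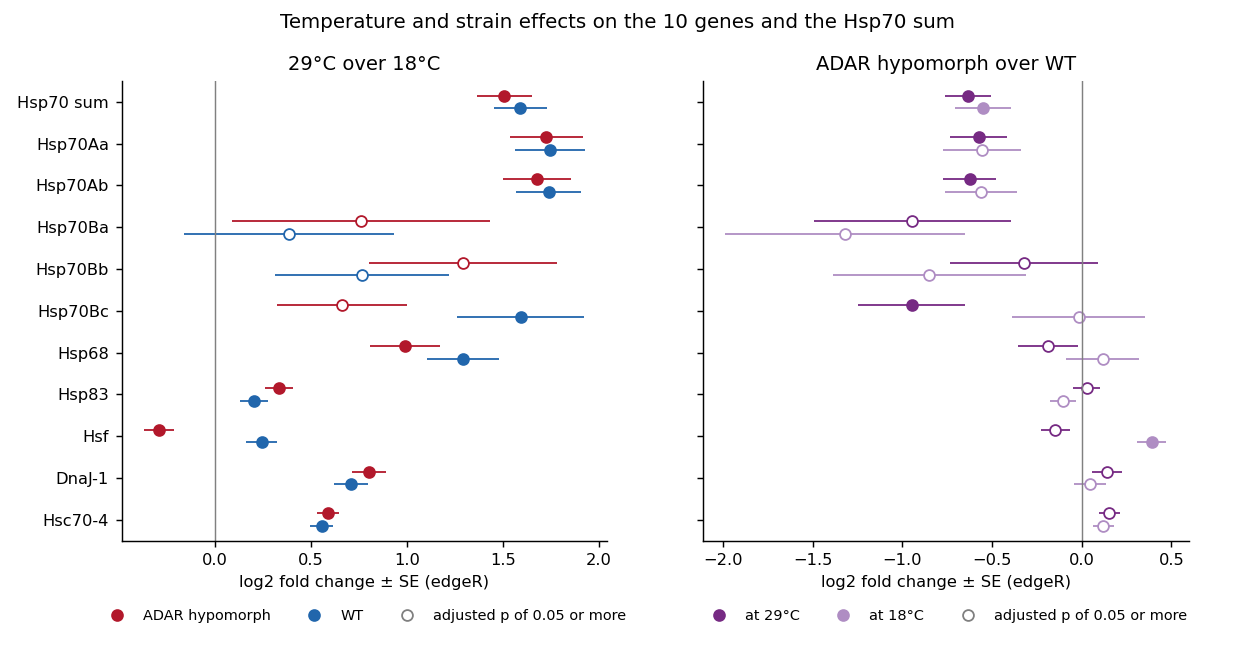
Log2 fold changes with their standard errors (edgeR) for the Hsp70 sum and the 10 genes. The left panel gives 29°C over 18°C in the ADAR hypomorph (red) and WT (blue), the right panel gives ADAR hypomorph over WT at 29°C (dark) and 18°C (light), and open symbols mark adjusted p of 0.05 or more; Hsf lies on opposite sides of 0 in the strains, at -0.29 and 0.25.

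Between the strains the Hsp70 sum was lower in the hypomorph. At 29°C it averaged 31.8 ± 6.7 CPM in ADAR hypomorph heads and 49.5 ± 1.9 CPM in WT heads (SD, n = 3 libraries each), 64.2% of the WT mean (log2 -0.64 ± 0.13, adjusted p = 0.0020, edgeR). At 18°C it averaged 11.3 ± 1.7 CPM in ADAR hypomorph heads and 16.5 ± 1.0 CPM in WT heads, 68.6% of the WT mean (log2 -0.55 ± 0.16, adjusted p = 0.015, edgeR). The groups did not overlap at either temperature, and exact two-sided permutation tests gave p = 0.1, the smallest possible value.

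The call at 29°C held in all 25 alternative fits, with log2 values of -0.82 to -0.53. The call at 18°C was lost in 5 of 25, among them the fit without hypomorph library 3 at 18°C (-0.42, adjusted p = 0.082, edgeR), the fit without the unnumbered WT library at 18°C (-0.51, adjusted p = 0.052, edgeR) and the fit with total counts as library sizes (-0.36, adjusted p = 0.089, edgeR). Without the hypomorph library whose Adar level lay in the WT range the value was -0.63 (adjusted p = 0.018, edgeR).

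At 29°C 3 of the 10 genes were called in the strain comparison, all lower in the hypomorph, where 19.0% of all genes tested were called (8.81% higher and 10.2% lower). They were Hsp70Aa (log2 -0.58 ± 0.16, adjusted p = 0.019, edgeR), Hsp70Ab (-0.63 ± 0.15, adjusted p = 0.0069, edgeR) and Hsp70Bc (-0.95 ± 0.30, adjusted p = 0.036, edgeR), and the first 2 may be 1 signal. Hsp70Bc lost its call in 10 of 20 alternative fits, also without the 2 libraries with gut transcripts (-0.77, adjusted p = 0.23, edgeR). Leaving out 1 library took its call away in 6 cases, namely each hypomorph library at 29°C (-1.03 to -0.87), the unnumbered WT library (-1.03) and WT library 2 (-0.69) at 29°C, and hypomorph library 2 at 18°C (-0.95). Hsp70Aa lost its call in 6 of 21 alternative fits, among them those without the unnumbered hypomorph library (-0.53), hypomorph library 3 (-0.44), WT library 2 (-0.56) or WT library 3 (-0.57) at 29°C. Hsp70Ab lost its call in 2 of 21, both on the 8 numbered libraries. Without the 2 libraries with gut transcripts 2 of the 10 genes were called.

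The remaining genes did not pass at 29°C. Hsp70Ba stood at 0.27, 0.81 and 1.39 CPM in the hypomorph against 1.56, 1.65 and 1.56 CPM in WT (log2 -0.94 ± 0.55, adjusted p = 0.28, edgeR). Hsc70-4 averaged 2665 ± 172 CPM in ADAR hypomorph heads against 2398 ± 34 CPM in WT heads (SD, n = 3 libraries each), without overlap (log2 0.15 ± 0.06, adjusted p = 0.085, edgeR). DnaJ-1, Hsp68, Hsp70Bb, Hsf and Hsp83 gave log2 values of 0.14, -0.19, -0.32, -0.15 and 0.03 with overlapping libraries.

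At 18°C 1 of the 10 genes was called, where 26.2% of all genes tested were called (11.6% higher and 14.6% lower). It was Hsf, which was higher in the hypomorph (log2 0.39 ± 0.08, adjusted p = 0.0020, edgeR) and kept its call in all 21 alternative fits, among them the one without the library whose Adar level lay in the WT range (0.37, adjusted p = 0.0075, edgeR). Its means were 39.7 ± 0.7 CPM in ADAR hypomorph heads and 30.3 ± 0.6 CPM in WT heads (SD, n = 3 libraries each), a fold of 1.31. Hsp70Aa and Hsp70Ab were at 68.3% and 68.0% of their WT means without overlap, and did not pass (adjusted p = 0.071 and 0.051, edgeR). Hsp70Ab passed in 4 of 21 alternative fits, namely with DESeq2 size factors (-0.58, adjusted p = 0.042, edgeR), without WT library 2 at 18°C (-0.65, adjusted p = 0.045, edgeR) and without hypomorph library 2 or 3 at 29°C (-0.56 each, adjusted p = 0.036 and 0.037, edgeR). Hsp70Aa passed in 1 of 21, without hypomorph library 2 at 29°C (-0.56, adjusted p = 0.041, edgeR).

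The B copies at 18°C were mixed. Hsp70Bc averaged 1.98 ± 0.75 CPM in ADAR hypomorph heads and 1.92 ± 0.44 CPM in WT heads, and Hsp70Ba 0.51 ± 0.27 CPM and 1.28 ± 0.73 CPM (SD, n = 3 libraries each). Their log2 fold changes were -0.02 ± 0.37 and -1.32 ± 0.67. Hsp83, Hsc70-4, DnaJ-1 and Hsp68 gave log2 values of -0.10, 0.12, 0.05 and 0.12, of which that of Hsp83 changed sign to 0.09 with total counts as library sizes.

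Several markers moved with strain and temperature beside these genes. The summed photoreceptor markers (ninaE, trp, norpA and ninaC) ran from 16899.5 to 18717 CPM in ADAR hypomorph heads and from 3678 to 4262 CPM in WT heads at 29°C, and from 13356 to 13644 CPM and from 2664 to 3008 CPM at 18°C. Most of that sum was ninaE, with means of 14647 and 2480 CPM at 29°C in the hypomorph and WT. The strains lay closer for trp (1610 and 846 CPM), norpA (339 and 174 CPM) and ninaC (1033 and 497 CPM) at 29°C. In the hypomorph ninaC also averaged 1033 CPM at 18°C. Both fat body markers in the table, Fbp1 and Lsp2, summed to 115 to 213 CPM in ADAR hypomorph heads and 182 to 209 CPM in WT heads at 29°C, and to 22.5 to 32.8 CPM and 994.6 to 1207 CPM at 18°C. The yolk protein genes Yp1, Yp2 and Yp3, expressed in female fat body, and the noncoding RNAs roX1 and roX2 of male dosage compensation were listed as 1 set, whose sum ran from 45082 to 52035 CPM in ADAR hypomorph heads and from 79934 to 83601 CPM in WT heads at 29°C, and from 21774 to 32534 CPM and from 96621 to 104927 CPM at 18°C. The yolk protein genes made up most of that sum. The RNA roX1 averaged 382 CPM in ADAR hypomorph heads and 474 CPM in WT heads at 29°C, and 803 and 492 CPM at 18°C. For roX2 the means were 44.6 and 28.6 CPM at 29°C, and 14.6 and 4.89 CPM at 18°C. Both roX means were higher in the hypomorph at 18°C, where the sum was lower. The neuronal markers summed to 527 to 543 CPM in ADAR hypomorph heads and 381 to 435 CPM in WT heads at 29°C, and to 429.6 to 459 CPM and 349 to 357 CPM at 18°C. The 3 glial markers summed to 127 to 134 CPM and 101 to 119 CPM at 29°C, and to 171 to 217 CPM and 146 to 154 CPM at 18°C in the same order of strains. The 3 muscle markers summed to 3803 to 4414 CPM in ADAR hypomorph heads and 3235 to 3565 CPM in WT heads at 29°C, and to 4449 to 4850.5 CPM and 5039 to 5935 CPM at 18°C. These 6 sums did not overlap between the strains at either temperature, except the fat body sum at 29°C, and no marker of these sets was at 0 in any group. The sums do not stand for every marker. At 29°C elav (55.6 to 57.8 CPM in the hypomorph, 45.8 to 49.2 CPM in WT) and nSyb (307 to 322 and 186 to 228 CPM) did not overlap. Syt1 (119 to 137 and 114.6 to 121 CPM), brp (33.7 to 41.3 and 32.1 to 37.0 CPM) and moody (36.6 to 41.2 and 35.9 to 40.9 CPM) did, as did Mhc at 18°C (1124 to 1256 and 1229 to 1390 CPM). The part of these markers in the differences of the 10 genes was not tested, and in RNA of whole heads fewer cells of a type and less RNA per cell cannot be told apart.

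The scaling mattered for small changes at 18°C. The TMM factors were 1.08 to 1.16 in ADAR hypomorph libraries at 18°C and 0.92 to 0.98 in the other 9. With total counts as library sizes the median of all genes shifted to 0.20 in the strain comparison at 18°C, to -0.20 in the temperature effect of the hypomorph and to -0.15 in the difference of effects. The share of calls that were higher was then 77.2% against 44.3% with TMM between strains at 18°C, 21.9% against 48.5% for temperature in the hypomorph, 57.1% against 46.3% between strains at 29°C, and 37.0% against 72.5% in the difference of effects.

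To place the 10 genes within their pathway, 67 further chaperones, co-chaperones and heat shock regulators were listed, of which 65 were in the table and 62 could be tested. At 29°C 27 were higher and 6 lower than at 18°C in ADAR hypomorph heads, where 15.6% of all genes tested were higher and 16.6% lower. In WT heads 24 were higher and 4 lower, where 16.1% of all genes were higher and 17.3% lower. Their median log2 fold changes were 0.24 and 0.17, against -0.01 and 0.01 over all genes. Without the 2 libraries with gut transcripts the counts were 23 and 5 in the hypomorph and 23 and 2 in WT. With total counts as library sizes they were 20 and 10 and 24 and 5. Among all genes that scaling called 840 higher and 3003 lower in the hypomorph, and 1267 and 1893 in WT.

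Most co-chaperones of Hsp90 were higher at 29°C. The list held 10 tested genes, among them the Hsp90 relatives Gp93 and Trap1 of the endoplasmic reticulum and the mitochondrion. Of these 10, 7 were higher and 1 lower in the hypomorph at 29°C (15.6% and 16.6% of all genes tested), and 6 were higher and 2 lower in WT (16.1% and 17.3% of all genes), with medians of 0.42 and 0.40. With total counts as library sizes 4 were higher and 2 lower in the hypomorph, where 840 of all genes were then higher and 3003 lower. Hop, which links Hsp70 to Hsp90, averaged 81.3 ± 10.3 CPM at 29°C against 34.3 ± 4.1 CPM at 18°C in ADAR hypomorph heads, and 79.3 ± 2.5 CPM against 41.0 ± 3.9 CPM in WT heads (SD, n = 3 libraries each). Its log2 fold changes of 1.24 ± 0.11 and 0.95 ± 0.11 were above those of Hsp83, 0.34 and 0.20, in the same libraries. CG1416, the Aha1 homologue that activates the Hsp90 ATPase, gave 1.18 and 0.99, Cdc37, which loads kinases, gave 0.68 and 0.68, and the immunophilin FKBP59 gave 0.45 and 0.35. Sgt went the other way (-0.21 and -0.20), although 7 of 21 alternative fits in the hypomorph and 15 of 21 in WT did not call it. The other gene that was lower at 29°C in WT was Gp93 (-0.26, adjusted p = 0.024, edgeR; -0.09 in the hypomorph, not called), whose WT call was lost in 7 of 21 alternative fits, among them those without the unnumbered WT library (-0.26) or WT library 2 (-0.19) at 18°C and without the unnumbered WT library (-0.25) or WT library 3 (-0.19) at 29°C. Trap1 gave 0.08 and 0.07 and did not pass.

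Of the 11 chaperonins and mitochondrial chaperones tested, 9 were called in the hypomorph and 7 in WT, all of them higher at 29°C, against 15.6% and 16.1% of all genes tested. CG11267, the mitochondrial co-chaperonin, averaged 327 ± 6 CPM at 29°C against 148 ± 12 CPM at 18°C in ADAR hypomorph heads and 334 ± 13 CPM against 186 ± 5 CPM in WT heads (SD, n = 3 libraries each). Its log2 fold changes were 1.14 and 0.84, those of its partner Hsp60 were 0.46 and 0.51, and those of the cytosolic chaperonin subunits CG8258 and Tcp-1zeta were 0.78 and 0.67 and 0.50 and 0.37. Between strains none was called at 29°C, and at 18°C none was higher and 4 were lower in the hypomorph (14.6% of all genes), namely CG11267 (-0.33), CG5525 (-0.41), Cct5 (-0.34) and Cctgamma (-0.34). With total counts as library sizes 2 were higher and 1 lower at 18°C, where 2636 of all genes were then higher and 779 lower.

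**Figure D5:**
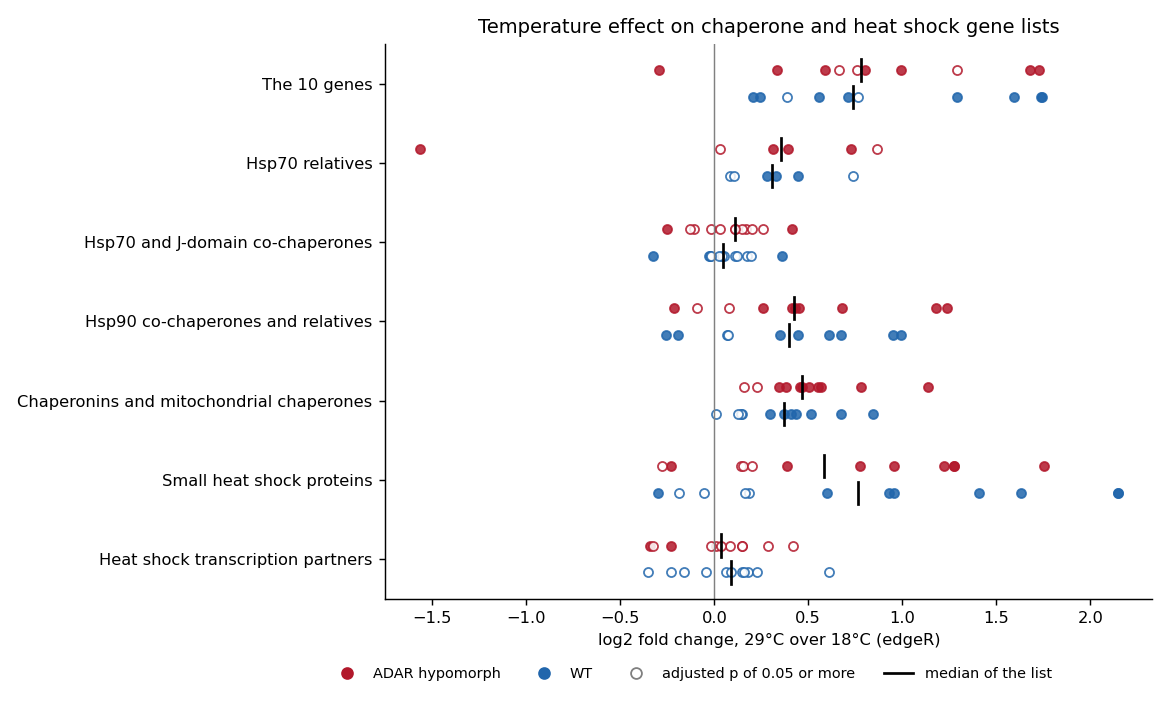
Log2 fold changes at 29°C over 18°C (edgeR) for the 10 genes and for the tested genes of the 6 lists, in the ADAR hypomorph (red) and WT (blue), 1 point per gene, with the median of each list as a black bar; open symbols mark adjusted p of 0.05 or more. The medians of the Hsp90 co-chaperones and relatives (0.42 and 0.40) lie right of 0, and those of the transcription partners (0.04 and 0.09) lie near it.

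Of 6 relatives of Hsp70, Hsp70Bbb among them, 3 were higher and 1 lower at 29°C in the hypomorph (15.6% and 16.6% of all genes tested), and 3 were higher and none lower in WT (16.1% of all genes higher). Hsc70Cb, an Hsp110 exchange factor, gave log2 0.73 in the hypomorph and 0.33 in WT (0.24, adjusted p = 0.054 by edgeR, without the unnumbered WT library at 18°C), the mitochondrial Hsc70-5 gave 0.39 and 0.28, and Hsc70-1 gave 0.31 and 0.45. Hsc70-2 was the one that was lower. It stood at 2.15, 2.67 and 1.39 CPM in ADAR hypomorph heads at 29°C against 7.996, 5.72 and 5.16 CPM at 18°C, without overlap (log2 -1.57 ± 0.50, adjusted p = 0.026, edgeR). Its temperature value was the largest in size among the 6 in either strain, and the call was lost in 7 of 20 alternative fits, among them those without the unnumbered hypomorph library (-1.38), library 2 (-1.64) or library 3 (-1.70) at 18°C and without the unnumbered hypomorph library (-1.59) or library 3 (-1.36) at 29°C. In WT heads Hsc70-2 averaged 0.52 ± 0.64 CPM at 29°C against 0.49 ± 0.45 CPM at 18°C (SD, n = 3 libraries each). Between strains at 18°C it stood at 7.996, 5.72 and 5.16 CPM in ADAR hypomorph heads at 18°C against 0.88, 0 and 0.58 CPM in WT heads (log2 3.66, adjusted p = 7.5e-04, edgeR). Hsc70-3, the Hsp70 of the endoplasmic reticulum, did not pass between temperatures (0.03 and 0.11) and was lower in the hypomorph at both, by log2 values of -0.54 at 29°C and -0.47 at 18°C. Gp93, the Hsp90 of the same compartment, was lower as well, with -0.46 and -0.62.

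Among 12 other co-chaperones of Hsp70 Droj2 alone was called higher at 29°C, in both strains (0.41 and 0.36), whereas jdp was lower in the hypomorph (-0.25) and DnaJ-H in WT (-0.33). These 2 calls in each strain stand against 32.2% and 33.4% of all genes tested. The log2 fold changes of DnaJ-1, 0.80 and 0.71, stood above all 12 in both strains. Csp, the J-domain protein of synaptic vesicles, was higher in the hypomorph at both temperatures (0.32 at 29°C and 0.26 at 18°C), as was HIP-R (0.38 and 0.32). The HIP-R call at 18°C was lost in 6 of 21 alternative fits, among them those without the unnumbered hypomorph library (0.32) or hypomorph library 2 (0.27) and without the unnumbered WT library (0.24) or WT library 2 (0.30) at 18°C. The DnaJ-H call was lost in 5 of 21, among them those without WT library 3 at 18°C (-0.25) and without WT library 2 at 29°C (-0.24).

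Most small heat shock proteins were higher at 29°C. The Hsp67Bb row held the same counts as Hsp22 in all 12 libraries, so that they are 1 signal, and with that signal counted once 11 could be tested. Of the 11, 6 were higher and 1 lower at 29°C in each strain, where 15.6% and 16.6% of all genes tested were higher and lower in the hypomorph and 16.1% and 17.3% in WT. The lower one was CG7409 (log2 -0.23 and -0.30). Its hypomorph call was lost without any 1 hypomorph library and without the gut-marked libraries (-0.25, adjusted p = 0.080, edgeR). Its WT call was lost without the unnumbered WT library at 18°C (-0.23) or WT library 3 at 29°C (-0.22). Between strains 7 of the 11 were called at 29°C, all lower in the hypomorph (10.2% of all genes), and 6 were lower and 1 higher at 18°C (14.6% and 11.6% of all genes). At 18°C 3 were lower and 1 higher with total counts as library sizes, where 779 of all genes were then lower and 2636 higher. Hsp26 averaged 20.3 ± 4.1 CPM in ADAR hypomorph heads and 33.2 ± 4.5 CPM in WT heads at 29°C and 8.66 ± 0.79 CPM and 10.8 ± 1.3 CPM at 18°C (SD, n = 3 libraries each). Hsp26 rose at 29°C in both strains (log2 1.22 and 1.63) and passed between strains at 29°C (-0.71) but not at 18°C (-0.30). Hsp22 stood at 22.5, 26.0 and 25.8 CPM in ADAR hypomorph heads at 29°C against 8.58, 12.7 and 9.08 CPM at 18°C, and at 40.5, 44.2 and 42.0 CPM in WT heads at 29°C against 9.64, 9.67 and 9.31 CPM at 18°C. Its log2 fold changes were 1.28 in the hypomorph and 2.15 in WT. For l(2)efl the values were 0.96 and 1.41, and CG14207 and CG7409 were lower in the hypomorph at both temperatures, with -0.49 and -0.55 at 29°C and -0.69 and -0.62 at 18°C.

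Of 11 genes listed as partners in heat shock transcription, 2 were called between temperatures in the hypomorph, both lower at 29°C, and none in WT, against 32.2% and 33.4% of all genes tested. The 2 were Trl, the GAGA factor that keeps Hsp70 promoters open (log2 -0.34, adjusted p = 0.0069, edgeR), and the heat shock noncoding RNA Hsromega (-0.23, adjusted p = 0.019, edgeR). In WT they gave -0.23 and -0.05 and did not pass. Both were higher in the hypomorph at 18°C, with 0.25 and 0.30, as Hsf was with 0.39. The call of Trl at 18°C was lost in 17 of 21 alternative fits. The temperature call of Hsromega was lost in 7 of 21, among them those without the unnumbered hypomorph library (-0.21) or library 3 (-0.22) at 18°C, without the unnumbered hypomorph library (-0.19) or library 2 (-0.24) at 29°C, and without the 2 libraries with gut transcripts (-0.23). With total counts as library sizes 6 of the 11 were higher in the hypomorph at 18°C. That scaling also raised the number of all genes called higher there, to 2636 from 1109 with TMM.

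As a description of likeness, the tested genes with a mean of at least 10 CPM (6473 genes) were ranked by the Pearson correlation of log2(CPM + 1) over the 12 libraries, which share their group structure and scaling. The profile of the Hsp70 sum was closest to those of GNBP-like3 (r = 0.98), Hsp26 (0.98), sxe2 (0.98), the ribosomal protein gene RpLP0 (0.97) and Non1 (0.97). That of Hsp83 was closest to Sh3beta (0.92), the profilin gene chic (0.91), Hsc70Cb (0.91), the respiratory chain gene ND-19 (0.91) and Nxf3 (0.91). That of Hsf was closest to the neuropeptide gene Crz (0.87), the phosphatase subunit gene tws (0.85), nolo (0.83), Cct1 (0.81) and CG5522 (0.80). The symbol Cct1 is not among the listed chaperonins.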

How the data were processed

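Heads of ADAR hypomorph and WT flies at 29°C and 18°C were profiled by 3' RNA-seq. Per the labels and the methods, TopHat was the aligner (dm3) and ESAT the counter, and the authors deposited unnormalized whole-number counts of 15423 genes; versions, the strand setting and the handling of reads that match several places are not given in the sources used here. Another 4 count columns matched none of the samples' labels and were left out. In each group 2 columns carry the numbers 2 and 3 and the third carries none.

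The 10 genes and the pathway and marker lists were chosen with earlier results of these data known. Counts were scaled by TMM and tested with edgeR 4.0.16 (quasi-likelihood F test, filterByExpr with a minimum count of 10, 4 groups, 12 libraries, Benjamini-Hochberg over 9553 genes) in R 4.3.3, and Python 3.11.15 was used for summaries. For the sum, the 5 Hsp70 rows were replaced by their sum before the filter. Exact two-sided permutation tests compared summed CPM. Named from each list were up to 4 called genes with the lowest adjusted p for temperature in either strain and up to 2 for a strain effect. Libraries of a group differed by a chi-square per degree of freedom of 3.20 to 9.00, so none was a copy of another. The fit was tested on simulated data. Alternatives were DESeq2 1.42.0, its size factors, other filters, fewer groups, a replicate block and leaving out libraries. Total counts as library sizes, the sum without the Hsp70Ab row, the fits without the gut-marked libraries and those of the list genes were chosen after seeing the data. The dm6 annotation gave gene order and strand only, and no genome sequence was used here. Counts carry no molecular identifiers, and low counts limit Hsp70Ba and Hsp70Bb.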

Additional observations from a re-analysis of the deposited data

Results flagged for a closer look

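The temperature effects of the strains differed for Hsf, with a log2 difference of -0.54 ± 0.11 (ADAR hypomorph minus WT, adjusted p = 0.017, edgeR), since all 3 hypomorph libraries at 29°C lay below the 3 at 18°C, and all 3 WT libraries at 29°C lay above the 3 at 18°C. The call of the difference was lost on the 8 numbered libraries. The rise within WT lost its call in 11 of 21 alternative fits.

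Among the pathway genes the strains' temperature effects also differed for Hsp22 and Hsp67Bb, whose rows are equal in all 12 libraries, with a log2 difference of -0.87 for each (adjusted p = 0.021, edgeR). The call was lost in 6 of 20 alternative fits, among them those without WT library 3 at 18°C (adjusted p = 0.059, edgeR), without WT library 3 at 29°C (adjusted p = 0.054, edgeR), without the unnumbered hypomorph library at 29°C (adjusted p = 0.059, edgeR) and without the 2 libraries with gut transcripts (adjusted p = 0.066, edgeR).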

How the results depend on the processing

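The temperature calls of the Hsp70 sum and its strain call at 29°C held in all 25 alternative fits each, with log2 values of 0.87 to 1.70 in the hypomorph, 1.11 to 1.74 in WT and -0.82 to -0.53 between strains. The strain call of the sum at 18°C was lost on the 8 numbered libraries (-0.57), with total counts (-0.36), for the 3 B copies alone (-0.53) and when 1 library was left out (range -0.63 to -0.42). Its difference of effects lay between -0.27 and 0.024 when 1 library was left out. The genes called between strains at 18°C numbered 2 with DESeq2 size factors or total counts and 1 to 3 when 1 library was left out. At 29°C they numbered 0 on the 8 numbered libraries with or without the replicate block and 1 to 4 when 1 library was left out, and in the difference of effects, where Hsf had been called, the number was 0 with and without the block. Deviations from the group means correlated by 0.0039 on average between libraries with equal numbers and by 0.0057 between others. These averages hid opposite signs. Between the strains at 29°C equal numbers gave 0.24 and 0.23 and others -0.31 and -0.15. Between WT at 29°C and the hypomorph at 18°C equal numbers gave -0.20 and -0.17 and others 0.33 and 0.13. The numbers were not read as pairs in the main fit, and the block left the strain call of the sum at 18°C (-0.59, adjusted p = 0.046, edgeR). Of 1019 fits of single genes 30 turned a sign, each for a value that was not called. With total counts these were Hsp70Bc (0.17) and Hsp83 (0.086) between strains at 18°C, and Hsp83 (-0.0049), DnaJ-1 (-0.041) and Hsc70-4 (-0.10) in the difference of effects. On the numbered libraries the difference of effects turned for Hsp70Aa (0.0022 with the block, 0.0012 without) and Hsc70-4 (-0.035 with the block, -0.0347 without). Without the gut-marked libraries Hsp83 gave -0.074 between strains at 29°C and Hsp70Bb -0.037 in the difference. Leaving out 1 library turned Hsp70Ba in WT (-0.091 to 0.66), Hsp70Bc (-0.27 to 0.26), Hsp68 (-0.082 to 0.28) and DnaJ-1 (-0.038 to 0.13) between strains at 18°C, Hsp83 (-0.052 to 0.081) at 29°C, and in the difference of effects Hsp70Aa (-0.23 to 0.12), Hsp70Ab (-0.24 to 0.060), Hsp70Ba (-0.17 to 0.84), Hsp70Bb (-0.020 to 0.93) and Hsc70-4 (-0.018 to 0.088). A further 45 fits lost a call and 11 gained one, and 143 of 1487 fits of the named list genes and Adar lost a call with none reversed. The causes were not tested.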
